A study of Homo sapiens with 10 samples.

Results

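The MYC and MAX network comprises transcription factors that share a basic helix-loop-helix leucine zipper domain. The 10 genes described here, out of 20037 protein-coding genes in the RefSeq table (GRCh38.p14), were taken by name: MYC, MYCN, MYCL, MAX, MXD1, MXD3, MXD4, MNT, MGA and MLX. The rule names genes and uses no summit. Chromatin immunoprecipitation followed by sequencing (ChIP-seq) was done on nuclei digested with micrococcal nuclease from HEK293T, a human embryonic kidney line. WDR5, a WD40-repeat subunit of the complexes that methylate histone H3 lysine 4, was precipitated from cells with the microprotein EMBOW knocked out (KO) and from wild-type (WT) cells. Tagged EMBOW (EMBOW-FH) was precipitated on anti-FLAG beads from HEK293T that stably carried it, and its list is called EMBOW-F. The labels do not say whether the KO cells are 1 clone.

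Each list is a set of 1 bp peak summits with the authors' −log10 q per summit, from 1 library. The KO list held 21055 summits, the EMBOW-F list 93143 and the WT list 17660. There was no replicate in any group, so no difference below has a replicate check, no p-value was computed, and read depth is unknown. Scores and ranks order summits within their own list only. Of the KO summits 89.9% shared their exact score with another summit, and of the WT summits 89.6%, so tied summits carry the same rank. No list measures EMBOW expression.

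MYC, MYCN and MYCL pair with MAX, bind DNA at the E-box hexamer CACGTG and mostly activate transcription. MXD1, MXD3, MXD4 and MNT compete for MAX and recruit SIN3 corepressors to the same sites. MGA also pairs with MAX and belongs to a variant Polycomb repressive complex, and MLX is a MAX-like partner of the glucose-responsive factors MLXIP and MLXIPL. MYC binds WDR5 through a conserved stretch known as MYC box IIIb, and WDR5 is known to help MYC onto chromatin. The lists here show WDR5 at the genes of the network, not MYC protein.

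Promoter windows of 300 bases, 250 before to 50 after a RefSeq start, were matched for 9 of the genes, with 12 windows in all. The hexamer CACGTG, which reads the same on both strands, occurred in 3 of the 12 windows, at MXD4, MNT and MLX. It occurred in 8.34% of 22199 protein-coding promoter windows, in 10.0% of the 12410 windows of genes with a KO summit at a gene end (10.4% for WT) and in 6.19% of windows of genes without one (6.11% for WT). The median GC content was 66.0% in windows of genes with a KO summit and 57.0% in those without. Windows were not matched on it. The hexamer lay 238 bases before the start at MXD4, 193 before it at MNT and 50 before it at MLX. These 3 sequences are shown because they hold the letters the network's own proteins bind. The 250 bases before each start are given 5′ to 3′ on the gene's strand, from RefSeq on GRCh38.p14, with the hexamer in capitals. They lie at chr4:2262110-2262359 (minus strand), chr17:2401061-2401310 (minus strand) and chr17:42566850-42567099 (plus strand).
MXD4: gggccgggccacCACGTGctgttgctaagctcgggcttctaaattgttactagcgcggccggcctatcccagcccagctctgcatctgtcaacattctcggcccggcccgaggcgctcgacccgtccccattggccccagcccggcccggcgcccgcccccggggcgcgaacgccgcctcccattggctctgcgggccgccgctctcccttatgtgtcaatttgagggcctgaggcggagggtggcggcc
MNT: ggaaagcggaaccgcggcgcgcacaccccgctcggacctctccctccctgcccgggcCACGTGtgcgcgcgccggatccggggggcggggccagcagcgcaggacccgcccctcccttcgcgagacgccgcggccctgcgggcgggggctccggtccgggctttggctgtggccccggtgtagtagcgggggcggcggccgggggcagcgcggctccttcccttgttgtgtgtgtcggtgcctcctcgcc
MLX: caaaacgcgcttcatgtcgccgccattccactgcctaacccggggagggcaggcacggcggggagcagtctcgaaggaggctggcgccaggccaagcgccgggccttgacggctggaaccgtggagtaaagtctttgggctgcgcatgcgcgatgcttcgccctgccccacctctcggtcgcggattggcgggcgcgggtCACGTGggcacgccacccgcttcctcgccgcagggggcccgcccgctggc

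The window before the second start of MAX (chr14:65101685-65101934, minus strand) is shown because a WT WDR5 summit fell inside it. Capitals mark the 21 bases centred on that summit. Of the 9 genes with windows, no other summit near the gene fell within the 250 bases before a start.
MAX: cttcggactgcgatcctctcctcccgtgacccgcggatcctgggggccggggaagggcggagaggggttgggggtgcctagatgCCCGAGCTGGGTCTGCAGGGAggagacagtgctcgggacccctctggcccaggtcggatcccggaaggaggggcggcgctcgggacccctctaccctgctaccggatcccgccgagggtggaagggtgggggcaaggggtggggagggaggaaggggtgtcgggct

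WDR5 was called within 1 kb of a gene end at 9 of the 10 genes in KO and at 8 in WT, all except MYC and, in WT, MYCN. Over all protein-coding genes the shares were 53.4% in KO and 50% in WT. A gene-end summit stood in both genotypes at MYCL, MAX, MXD1, MXD3, MXD4, MNT, MGA and MLX, against 46.4% of all genes. MYCN had a gene-end summit in KO and none in WT, a class that held 6.99% of all genes, and none of the 10 was in the converse class, which held 3.51%. MYC was the gene with no gene-end summit in either genotype, as were 43.1% of all genes. EMBOW-F had no gene-end summit at any of the 10 genes, and 1.40% of all genes had one, so a count of 0 among 10 is near that background. The counts of 1 in the KO class and 0 in the converse are likewise near their backgrounds. The 10 genes had 14 gene-end summits in KO and 13 in WT. All of them lay at the 5′ end of the gene, and none at the 3′ end.

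**Figure D1:**
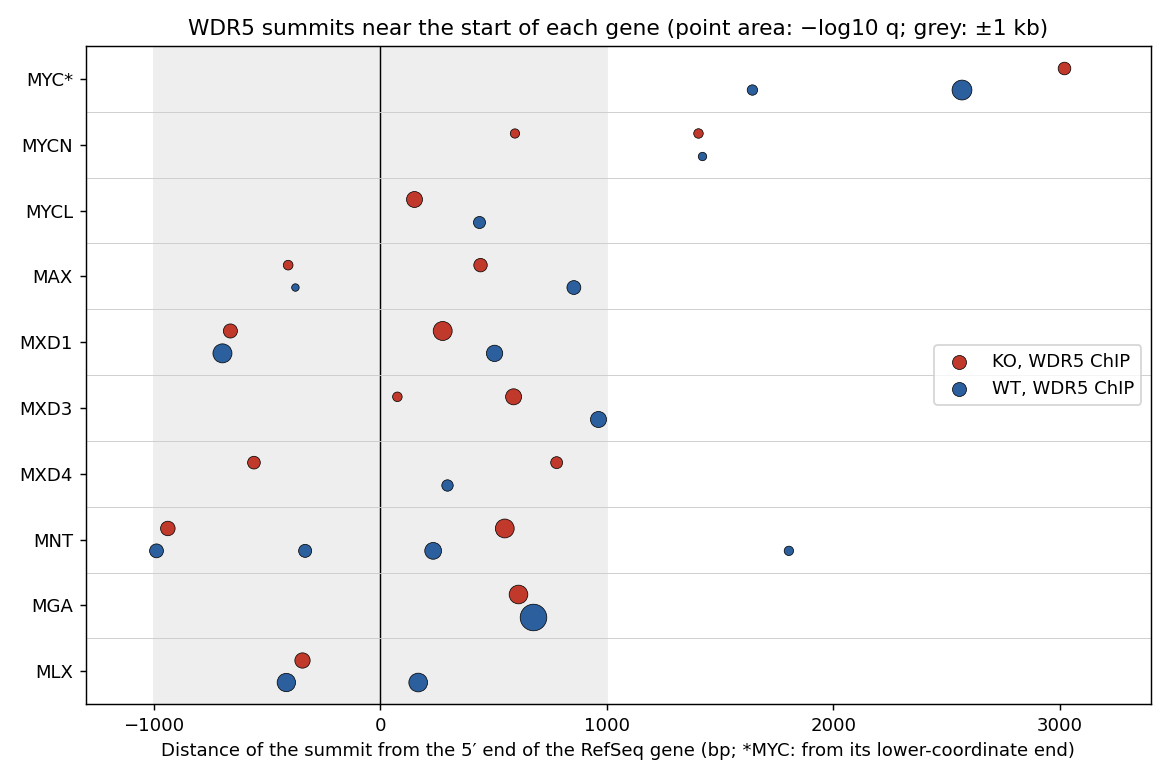
Distance (bp) of WDR5 summits from the 5′ end of each gene, KO (red) above WT (blue), with point area proportional to −log10 q and ±1 kb in grey; for MYC the distance is from its lower-coordinate end. The MYC summits lie beyond the 1 kb limit, and MYCN has a point inside it in the KO row and none in the WT row.

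At MYC, the network's best-known activator, WDR5 was called inside the gene and past the 1 kb window. MYC spans 127735434 to 127742951 on chromosome 8. The KO list had 1 summit in the gene, at 127738451, 3017 bp from the lower-coordinate end (rank 10893, −log10 q 6.13). The WT list had 2, at 127737077 (1643 bp, rank 12496, −log10 q 4.15) and at 127738002 (2568 bp, rank 2737, −log10 q 15.1). The KO summit lay 449 bp from the higher-scoring WT summit, so both lists place a summit in the same stretch of MYC. A further pair stood beyond MYC near an end of PVT1, a long noncoding RNA gene. The KO summit was at 127794312 (212 bp from that end, rank 2569) and the WT summit at 127794615 (91 bp from it, rank 2669).

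MYCN, the paralogue known from neuroblastoma, was the gene called at its end in a single genotype. It starts at 15940550 on chromosome 2, plus strand. The KO list held summits 595 bp and 1405 bp after that start, with −log10 q of 3.32 (rank 16835) and 3.48 (rank 16121). WT had 1 summit, 1421 bp after it, with −log10 q 2.72 (rank 15644). The KO summit at 15941955 and the WT summit at 15941971 lay 16 bp apart, and they stood 478 and 462 bp from an end of MYCNOS, the antisense gene of MYCN. The difference at MYCN therefore rests on 1 weak KO summit, 826 bp from the WT one. Of the KO genes with a gene-end summit, 94.0% had a higher-ranked one than MYCN.

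MYCL, the third activator, carried 1 summit in each genotype just inside its 5′ end (chromosome 1, 39901917, minus strand). In KO it lay 148 bp after the start, at 39901769, with −log10 q 9.74 and rank 6992. In WT it lay 438 bp after the start, at 39901479, with −log10 q 5.59 and rank 10363. The 2 summits were 290 bp apart.

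MAX, the obligate partner of the MYC proteins, had summits on either side of its 5′ end in both genotypes (chromosome 14, 65102695, minus strand). The weaker KO summit, 406 bp outside the gene, and the weaker WT summit, 374 bp outside it, lay 32 bp apart, with −log10 q of 3.61 and 2.16. The stronger ones were inside, 443 bp from the end in KO (65102252, −log10 q 6.95) and 855 bp from it in WT (65101840, −log10 q 7.37). RefSeq has further starts of MAX here. The KO summit lay 31 bp after the start at 65102283, and the WT summit 156 bp before the start at 65101684, in the sequence printed above. The best MAX summit ranked 9623 in KO and 7751 in WT.

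MLX, the MAX-like factor, had a KO summit 344 bp before its start (chromosome 17, 42567100, plus strand) with −log10 q 8.98 and rank 7527. WT had a summit 414 bp before the start (−log10 q 13.0, rank 3608), 70 bp from the KO one, and a further summit 168 bp after it (−log10 q 13.4, rank 3439). The WT summit after the start had no KO summit within 500 bp, the nearest being 512 bp away. The upstream summits also lay within 1 kb of the end of COASY, a coenzyme A synthase gene next to MLX, as did the WT summit after the start, so they cannot be assigned to MLX alone. The hexamer printed for MLX, 50 bases before its start, stood between the 2 WT summits.

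The MXD genes, which encode the MAX-binding repressors, had summits in both genotypes. MXD1 (chromosome 2, 69915109, plus strand) had KO summits 661 bp before and 276 bp after its start, with −log10 q of 7.61 and 13.8. WT summits lay 696 bp before and 505 bp after it, with −log10 q of 13.9 and 10.2. The order of the flanks by score thus differed, the downstream summit scoring higher in KO and the upstream one in WT. The upstream summits were 35 bp and the downstream ones 229 bp apart.

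MXD3 (chromosome 5, 177312752, minus strand) had KO summits 76 bp and 589 bp after its 5′ end, with −log10 q of 3.51 and 9.84. WT had 1, 962 bp after the end, also with −log10 q 9.84. The WT summit lay 373 bp from the stronger KO summit and 886 bp from the weaker one. The weaker KO summit was the closest to a 5′ end among the 14 KO gene-end summits. MXD4 (chromosome 4, 2262109, minus strand) had KO summits 557 bp before and 779 bp after its start, with −log10 q of 6.20 and 5.44. Its WT summit lay between them, 293 bp after the start, with −log10 q 5.00. The KO summit before the start of MXD4 lay 850 bp from any WT summit.

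MNT, the broadly expressed MAX-binding repressor, had the most summits inside the gene among the 10, with 4 in KO and 5 in WT. Near its start (chromosome 17, 2401060, minus strand) the KO summits lay 937 bp before and 550 bp after it, with −log10 q of 8.10 and 13.6. WT summits lay 987 and 331 bp before and 234 bp after it, with −log10 q of 7.37, 6.53 and 10.8, and a weak one 1804 bp after it (−log10 q 3.36). Past these, a trio of summits recurred in both genotypes 6.9 to 8.5 kb into the gene. The KO trio stood 8464, 7486 and 6953 bp after the start, with −log10 q of 6.93, 18.1 and 4.93. The WT trio stood 8469, 7983 and 6926 bp after the start, with −log10 q of 2.16, 20.2 and 4.57. The outer positions agreed within 5 and 27 bp, and the middle summits lay 497 bp apart. The middle summit outscored every gene-end summit of MNT in each list (rank 2569 in KO and 1460 in WT).

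MGA, the MAX partner of the variant Polycomb complex, carried the highest-ranked gene-end summit of the 10 genes in WT. It lay 673 bp after the start (chromosome 15, 41621224, plus strand) at 41621897, with −log10 q 27.1 and rank 728. The KO summit was 64 bp away, at 41621833, with −log10 q 13.4 and rank 4454. Both summits also lay near an end of LOC105370791, another RefSeq gene, 378 bp from it in KO and 442 bp in WT. That end was nearer than the MGA start, which was 609 bp away in KO and 673 bp in WT. These summits therefore cannot be assigned to MGA alone. Of genes with a gene-end summit, 36.4% ranked higher than MGA in KO and 6.17% in WT. A second site lay deep in MGA at another RefSeq start, 41660747. The KO summit there was 118 bp after that start (−log10 q 8.79) and the WT summit 124 bp after it (−log10 q 6.76), 6 bp apart. WT had a further summit 1099 bp after that start (−log10 q 5.02).

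**Figure D2:**
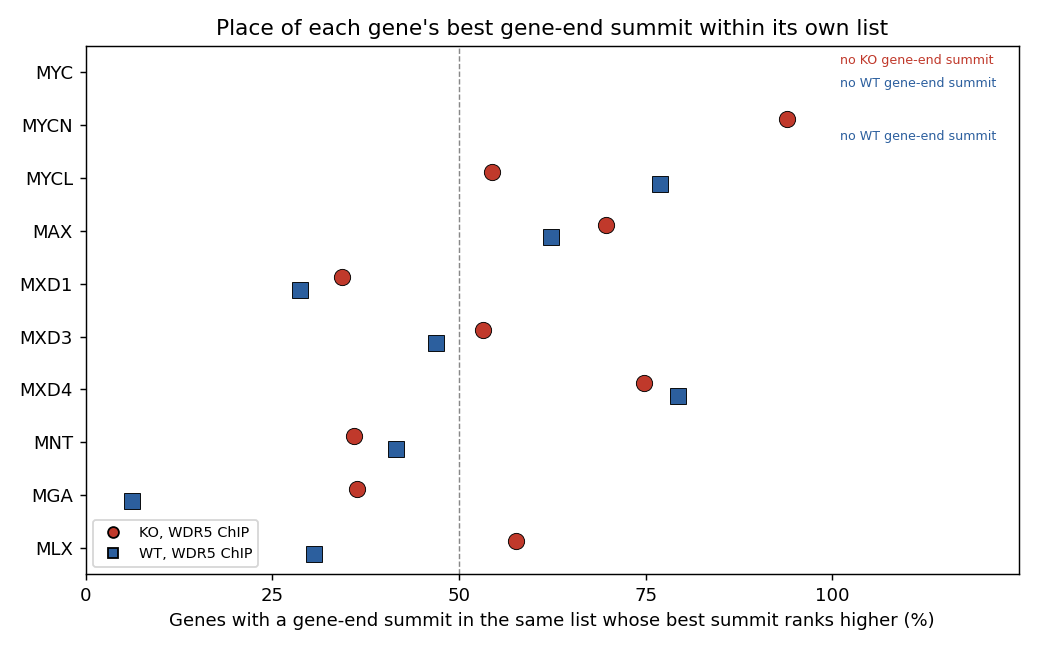
Share (%) of genes with a gene-end summit in the same list whose best summit ranked higher than that of each gene, KO as red circles and WT as blue squares; 50% is dashed. MGA in WT stands at 6.17%, and MYCN in KO at 94.0%.

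Within their own lists the network genes held middling places. The best gene-end summits of the 9 genes in KO had a median rank of 6992, against 6353 over all 10707 genes with one. For the 8 genes in WT the median was 5205, against 5945 over 10011 genes. With such genes split at their median rank, 3 of the 9 were in the upper part in KO and 5 of the 8 in WT. MXD1, MNT and MGA were above the median in both lists, and MYCL, MAX and MXD4 were below it in both. MXD3 and MLX were below it in KO and above it in WT. Ranks of lists of different lengths do not measure a change between genotypes.

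Gene-end summits of the network genes lay, by their median, farther from the start than those of all genes. Over 15843 protein-coding genes with a known strand, summits were most frequent 100 to 200 bp after the start in both lists, with 2360 summits in KO and 2263 in WT. That stretch held 21.8% of the KO and 22.6% of the WT summits within 1 kb of a start, and 1 of 14 KO and 1 of 13 WT summits of the network genes. The median distance from the start was 554 bp for the network genes in KO, against 310 bp over all genes, and 438 bp in WT, against 308 bp. Over 250 bp from the start lay 12 of 14 KO and 11 of 13 WT summits, against 61.7% and 60.9% over all genes. From 250 bp before to 50 bp after the start there was none, against 6.34% of KO and 6.03% of WT summits over all genes. Distances were measured from the outer end of the RefSeq gene, and inner starts, as at MAX, were not counted here. With 1 library per genotype these medians are descriptions of few summits, with no test.

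**Figure D3:**
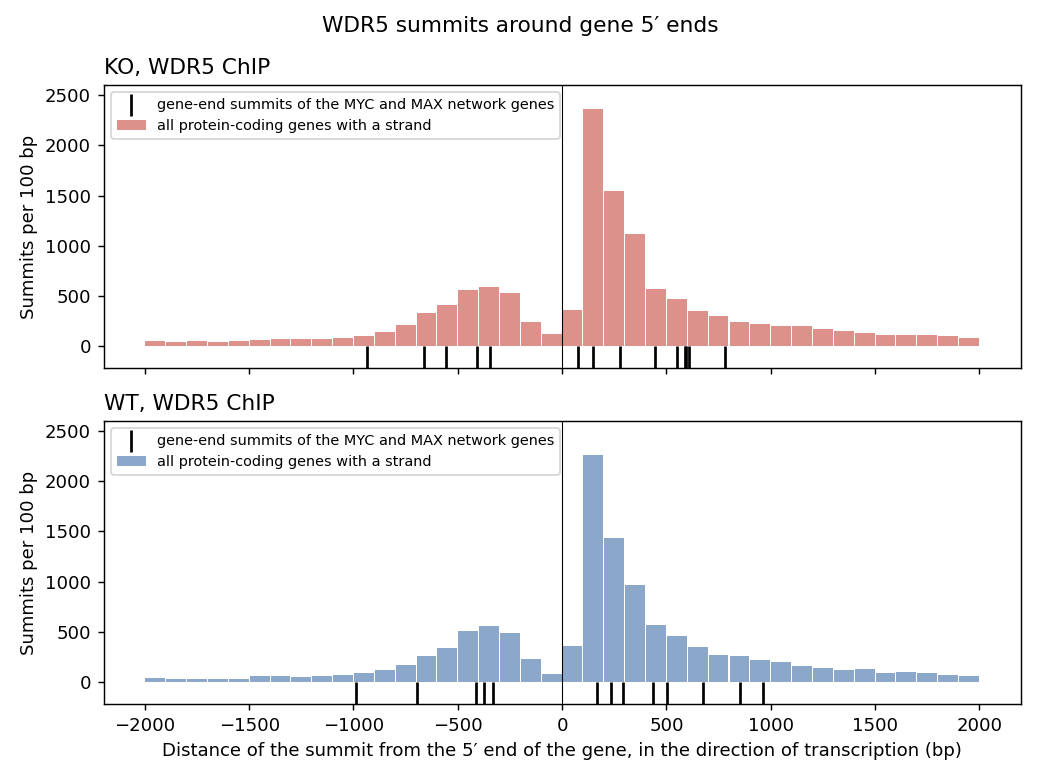
Number of WDR5 summits per 100 bp around the 5′ end of 15843 protein-coding genes (bars), with the gene-end summits of the network genes as black ticks, KO above and WT below. The bars peak 100 to 200 bp after the start, where 1 tick falls in each list.

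The gap to the other genotype's nearest summit was also larger by its median. A partner within 500 bp was present for 11 of 14 KO summits and 11 of 13 WT summits, against 75.1% and 82.0% of all gene-end summits. The median distance to the nearest summit of the other genotype was 303 bp for the KO summits of the network genes, against 115 bp for all KO gene-end summits. In WT it was 290 bp, against 96 bp. The closest pair was that at MAX, 32 bp apart. The KO summits without a partner were at MYCN, MXD3 and MXD4, and the WT ones were the summits 331 bp before the start of MNT and 168 bp after the start of MLX.

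From 100 kb before to 100 kb after the 10 genes there were 51 KO and 54 WT WDR5 summits. Every one of the 10 had at least 1 in each list, as had 86.8% of all genes in KO and 84.1% in WT. The number per gene had a median of 4.5 in KO and 4 in WT, against 3 over all genes in both. MYC and MYCN had the fewest in KO (2 each), MYCN had the fewest in WT (1), and MLX had the most (11 in KO and 12 in WT). Of the 37 KO summits away from the genes' own ends, 22 lay within 1 kb of an end of another protein-coding gene. Of the 41 such WT summits, 25 did. Summits deeper inside another gene were not counted here.

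Some neighbouring genes carried summits that scored higher than the gene-end summits of the network gene beside them, with 1 exception given below. Summits deeper inside the network genes, as at MNT, are left out of that comparison. At NAGLU, an alpha-N-acetylglucosaminidase gene 31 kb before MLX, the KO summit ranked 386 (−log10 q 42.5) and the WT summit 681 (−log10 q 27.6), 5 bp apart. Within 1 kb of an end of both PRELID1 and RAB24, beside MXD3, the KO summit ranked 691 and the WT summit 794, and they lay 38 bp apart. The summits beside CHURC1, after the 3′ end of MAX, ranked 701 in KO and 6121 in WT, 13 bp apart. In each of these pairs the summits of both genotypes stood at nearly the same position. At PSMC3IP, a recombination cofactor gene on the other side of MLX, the KO summit ranked 839 and the WT summit 2737, 79 bp apart. Near MXD4, the KO summit within 1 kb of both POLN and HAUS3 ranked 1727 and the WT summit 3911, 15 bp apart. The KO summit at TRIT1, a transfer RNA modifying enzyme gene near MYCL, ranked 2351 and the WT one 6240, 67 bp apart. At TSR1, near MNT, the ranks were 2035 in KO and 2236 in WT. Other neighbours had the better rank in WT, though ranks of lists of different lengths do not measure a change between genotypes. Within 1 kb of both SMG6 and SRR, also near MNT, the KO summit ranked 4269 and the WT summit 1150. Those at GMCL1, near MXD1, ranked 6372 in KO and 1937 in WT. The KO summit at GMCL1 (−log10 q 10.4) is the exception, since it scored below the KO summit after the MXD1 start (rank 4201, −log10 q 13.8).

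**Figure D4:**
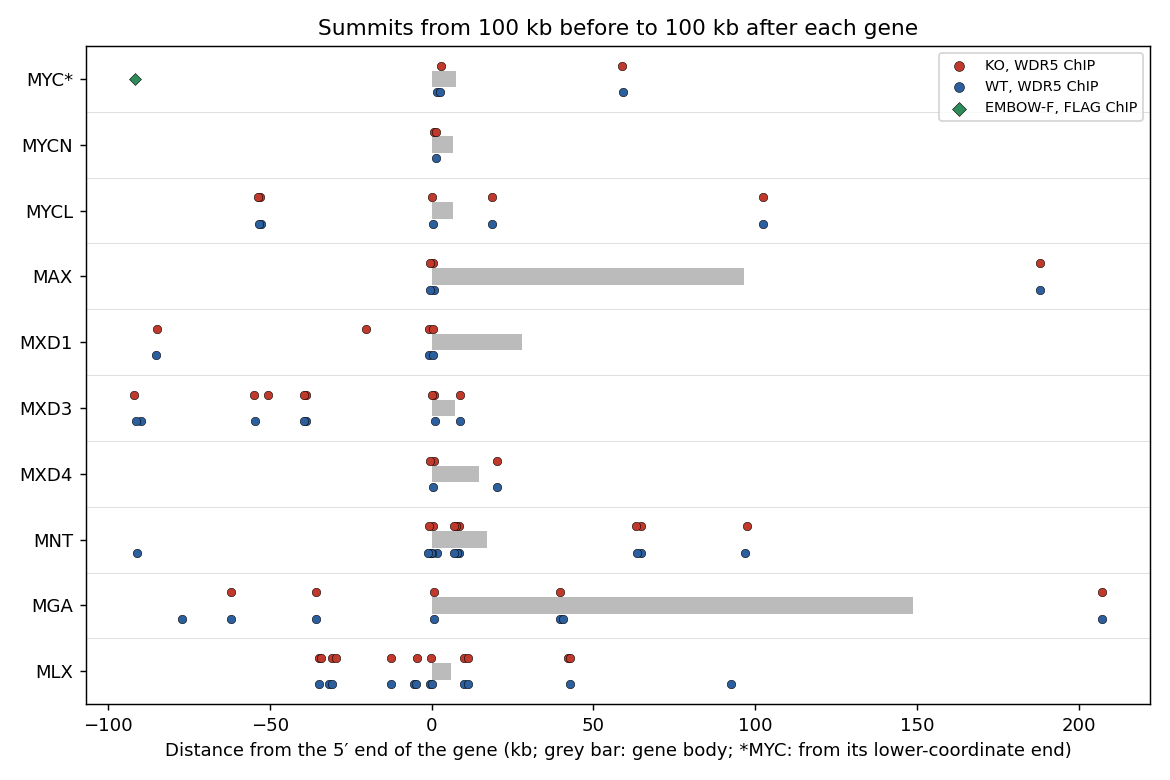
Summits from 100 kb before to 100 kb after each gene, as distance (kb) from its 5′ end, with the gene body in grey, KO in red, WT in blue and EMBOW-F as a green diamond; for MYC the distance is from its lower-coordinate end. The single EMBOW-F summit lies before MYC, and most KO points have a WT point below them.

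A single gene of the network had an EMBOW-F summit in its neighbourhood. The only EMBOW-F summit within 100 kb of any of the 10 genes was at 127643742 on chromosome 8, 91692 bp before the lower-coordinate end of MYC, with −log10 q 2.33 and rank 70568. Of all genes, 13.3% lay that close to one, so 1 of 10 is near that background. The nearest WT WDR5 summit lay 93335 bp from it. For MYCN the nearest EMBOW-F summit to a gene end was 513049 bp away, and for the other 8 genes it was between 1858688 bp (MXD4) and 9388943 bp (MLX) away.

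The authors' deposited table of new WDR5 targets dependent on EMBOW held transcripts overlapping MXD3 and no other gene of the 10. In the authors' deposited table a same-strand transcript started within 1 kb of the 5′ end of 8.02% of 15843 genes. Such a transcript stood at 753 of 1118 genes marked at an end in KO alone (67.4%), and at 231 of 7665 genes marked in both (3.01%). The authors may have drawn their targets from these same WDR5 precipitations, so the contrast is no independent support. MYCN, of the KO class, was not in the authors' deposited table, and MXD3, with a summit in both, was. At MXD3 the authors' deposited table had 9 transcripts, counted by overlap with the gene span. Those reaching down to 177301461 and 177302752 extend past the lower-coordinate end of MXD3 at 177305499. The outermost of the 9 starts at 177312757, with the weaker KO summit 81 bp after it and the WT summit 967 bp after it. Of the others, 7 start between 177311870 and 177311898, with a KO summit 265 to 293 bp before the start and the WT summit 80 to 108 bp after it. The remaining transcript starts at 177308062, with the nearest KO summit 4101 bp and the nearest WT summit 3728 bp before it. At the 7 clustered starts the summits of the genotypes thus lay on different sides, and at the outermost and the innermost start on the same side.

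Genes that work with the network mostly carried WDR5 in both genotypes. The wider lists were chosen with earlier results of these data known, so a gap to all genes is no evidence about the network. Among genes for MYC cofactors, 19 of 19 had a gene-end summit in KO and 17 in WT, against 53.4% and 50% of all genes. It stood in both genotypes at 17, against 46.4% of all genes. A KO summit and no WT one stood at 2 and the converse at 0, against 6.99% and 3.51% of all genes. EP400, a chromatin remodeler of the NuA4 acetyltransferase complex, ranked 557 in KO and 8234 in WT, CDK9, the elongation kinase, 629 and 559, and USP28, a deubiquitinase of MYC, 9135 and 719. HCFC1, which also binds MYC, had a KO summit (rank 2517), and its nearest WT summit, at 1060 bp, was just past the window. AURKA, the kinase that stabilises MYCN, had a KO summit (rank 8621) with the nearest WT summit 10118 bp away.

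Of 14 genes for corepressors and Polycomb partners of MXD, MNT and MGA, 12 had a gene-end summit in each genotype and 10 in both. Over all genes 46.4% had one in both. A KO summit and no WT one stood at 2 and the converse at 2, against 6.99% and 3.51% of all genes. HDAC2, a histone deacetylase, ranked 897 in KO and 326 in WT, E2F6, a repressor of the MGA complex, 369 and 627, and RYBP, a Polycomb subunit, 806 and 409. Of the SIN3 genes, SIN3B had a KO summit (rank 2841) and no WT summit for 146461 bp, whereas SIN3A had a WT summit 895 bp from an end (rank 1101) and a KO summit 1052 bp from one, on either side of the 1 kb limit. TFDP1, an E2F partner, was called at its end in KO (rank 9623) and not in WT, and L3MBTL2, a chromatin reader of the MGA complex, in WT (rank 13311) and not in KO.

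Of 36 MYC target genes, 34 had a gene-end summit in each genotype and 33 in both, against 46.4% of all genes in both. A KO summit and no WT one stood at 1 and the converse at 1, against 6.99% and 3.51% of all genes. NCL (nucleolin) ranked 411 in KO and 913 in WT, CTPS1 (CTP synthase) 738 and 564, and WDR43, a ribosome biogenesis factor, 6443 and 717. SHMT2, a mitochondrial enzyme of serine metabolism, had a KO summit (rank 9056) and no WT summit for 12441 bp, and PES1, a ribosome biogenesis factor, a WT summit (rank 15150) and no KO summit for 61224 bp. Of the network genes outside the 10, MXI1 (ranks 6073 and 8057) and MLXIP (3140 and 9268) had a gene-end summit in both. MLXIPL had none within 1 kb in either, the nearest being 14838 bp from an end in KO and 14929 bp in WT.

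**Figure D5:**
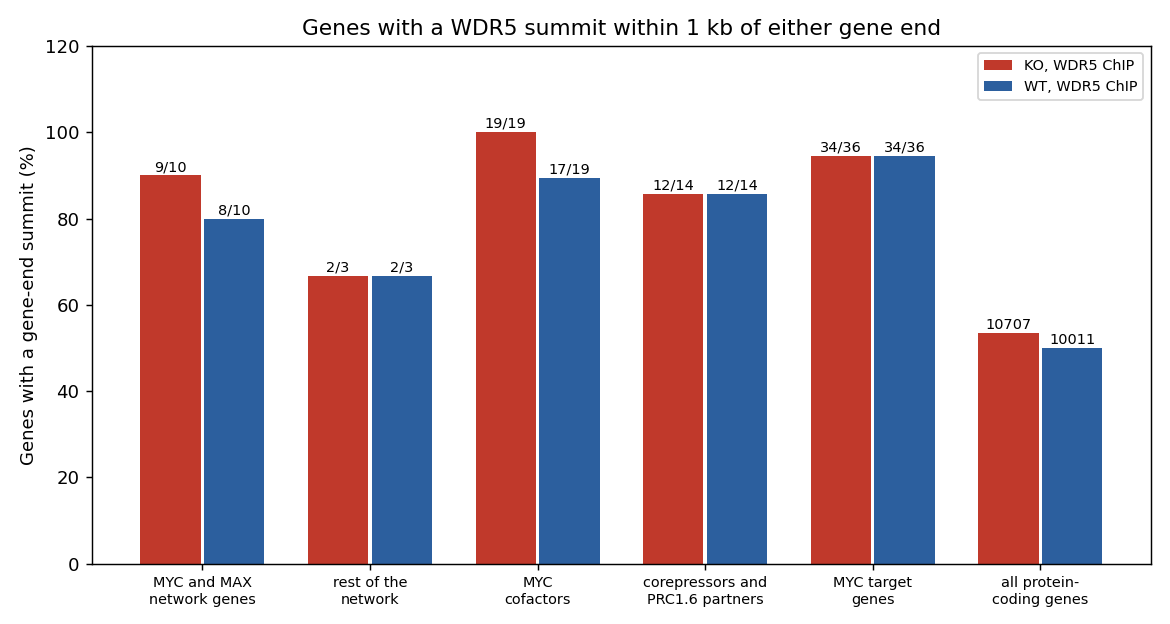
Share (%) of genes with a WDR5 summit within 1 kb of either gene end, KO (red) and WT (blue), with counts above the bars. Each list stands above the 53.4% (KO) and 50% (WT) of all protein-coding genes. The lists were chosen with earlier results of these data known, so that gap is no evidence about the network. The rest of the network is 2 of 3 genes in each genotype.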

How the data were processed

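Lists and gene members were chosen with earlier results of these data known. The authors deposited 3 lists of 1 bp summits whose score has the form of a −log10 q value per summit. That unit was read from the deposited values, since the lowest score in each list lies just above 1.30, the −log10 of a q of 0.05. The submitters' processing notes list hg38, MACS2 2.2.7.1, Bowtie2 2.4.5 and deepTools 3.5.1. Their roles, the inputs and any pooling are not given in those notes. The EMBOW-F list was matched to the FLAG precipitation, the only ChIP of tagged EMBOW in the labels. The libraries for H3K4me3 and the inputs were not analysed here.

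Summits within 1 kb of either end of a RefSeq gene (GRCh38.p14, which shares hg38 coordinates) were counted as gene-end summits, and summits at most 500 bp apart as partners. Starts and strands came from the RefSeq promoter windows. These do not cover MYC. Rank 1 is the highest score, and ties share the better rank. With 1 library per group no test was run. In the authors' deposited list of transcripts, 1 chromosome name that had lost its first letters was repaired. Named were all 10 genes, neighbours sharing a gene-end summit, and, of each wider list, the 3 genes with the best rank and those called in a single genotype (at most 6, with L3MBTL2 beyond that limit). Neighbours farther off were named after their values were seen. Protein sequences were not used here. Python 3.11.15, numpy 2.4.6 and pandas 2.3.3 were used. The search was tested on simulated data and found all 200 planted summits among 2000 genes.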

Additional observations from a re-analysis of the deposited data

How the results depend on the processing

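No paired analysis was possible because each group has 1 library, and for the same reason no replicate could be left out. With a window of 500 bp, 5 of the 10 genes had a gene-end summit in KO (44.8% of all genes) and 5 in WT (41.6%), with 2 genes in KO and not in WT (MXD1 and MXD3, 9.05% of all genes) and 2 the converse (MXD4 and MNT, 5.81%). At 2 kb MYCN left the KO class, which then held 0 of the 10 (6.58% of all genes), and MYC was the 1 gene in WT and not in KO (2.93%). At 5 kb all 10 genes had a summit in both lists (60.6% of all genes in KO and 57.0% in WT), and the KO class again held 0 (6.56%). With a q of 1e-05 or less the KO class held 0 (9.55% of all genes), since the MYCN summit was lost, and 8 genes had a summit in each list (44.5% of all genes in KO and 39.7% in WT). Counting 5′ ends only (9 genes with a strand), or shortening the KO list to the length of the WT list, left MYCN as the gene of the KO class. A partner distance of 250 bp left 6 of 14 KO and 6 of 13 WT summits with a partner. The share over all gene-end summits at that distance was not computed. A flank of 200 kb gave 94 KO and 94 WT summits. The EMBOW-F summit near MYC was lost, leaving 0, with a flank of 50 kb or a q of 1e-05 or less. Read depth is unknown, and summit lists cannot show occupancy below the authors' threshold.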

Other observations

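MLXIPL, the MLX partner without a gene-end summit, has in the RefSeq promoter table a start inside the gene span, and the KO and WT summits nearest that start lay 86 and 154 bp after it, although neither counted as a gene-end summit.

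Identical scores linked summits on different chromosomes. In KO the MAX summit inside the gene, the summit at SNRNP27 beside MXD1 and the summit after the 3′ end of MGA shared 1 score with 157 summits in all, which fixes their common rank of 9623. The KO list held 4038 distinct scores for 21055 summits and the WT list 3518 for 17660.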
